A study of Mus musculus with 6 samples.

Results

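Heme and iron handling was followed through 9 genes in nuclei from photothrombotic (PT) lesions of the mouse cortex: Cd163, Slc48a1, Hmox1, Fth1, Ftl1, Slc40a1, Cp, Tfrc and Slc11a1. These 9 of 32285 annotated features were chosen by name for their known roles, with earlier results of these data known, and all 9 were detected. Their unique molecular identifiers (UMIs, 1 per captured transcript) were summed over the nuclei of each cell class and library and scaled to 1000000 non-mitochondrial UMIs of that class and library (CPM). In border-type and Fabp4 macrophages of lesions whose fibroblasts were targeted for Tgfbr2 deletion, Slc40a1 stood at 42.8 CPM at 7 days post-injury (dpi) and 70.0 CPM at 21 dpi, against 204 and 330 CPM in control lesions. The difference rested on 46 nuclei at 7 dpi and was smaller over a wider pool of macrophages, at 40.3 against 74.5 CPM and 79.9 against 196 CPM. In fibroblasts of the same lesions, Cp had the highest ratio of the 9 genes to its control level, at 596 against 169 CPM at 7 dpi and 1778 against 256 CPM at 21 dpi. At 21 dpi, 302 of the 475 cKO fibroblasts lay in a sub-cluster that held no Ctrl nuclei.

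Red cells that leak into injured tissue are cleared largely by macrophages. CD163 binds haemoglobin with haptoglobin, the transporter encoded by Slc48a1 moves heme out of the phagolysosome, and heme oxygenase 1, encoded by Hmox1, opens the heme ring and frees its iron. Ferritin, built from the heavy and light chains encoded by Fth1 and Ftl1, stores that iron. Ferroportin, encoded by Slc40a1, is the known iron exporter of the cell surface, and ceruloplasmin, encoded by Cp, oxidises the iron that leaves. Transferrin receptor 1, encoded by Tfrc, takes up iron bound to transferrin, and Slc11a1 encodes a metal transporter of the phagosome membrane. In the brain, ceruloplasmin is best known in astrocytes.

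Several of these transcripts carry iron-responsive elements, short hairpins in the untranslated region (UTR) that iron regulatory proteins bind when cellular iron is low. Elements in the 5′ UTR (Fth1, Ftl1, Slc40a1) then hold back translation, whereas those in the 3′ UTR (Tfrc) shield the transcript from decay, so that a nuclear transcript level reads only part of this control. The hairpins found in the GRCm38 genome with the GENCODE M21 annotation are shown because they separate the storage and export genes from the uptake gene. Capitals mark the 6-base loop, and each sequence runs 5′ to 3′ on the transcript strand.
Fth1 5′ UTR, chr19:9982732-9982760 (+): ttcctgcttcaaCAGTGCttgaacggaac
Ftl1 5′ UTR, chr7:45459779-45459807 (−): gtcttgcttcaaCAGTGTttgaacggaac
Slc40a1 5′ UTR, chr1:45925465-45925493 (−): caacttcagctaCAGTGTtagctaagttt
Tfrc 3′ UTR, chr16:32631219-32631247 (+): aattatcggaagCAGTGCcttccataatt
Tfrc 3′ UTR, chr16:32631598-32631626 (+): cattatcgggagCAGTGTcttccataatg
Tfrc 3′ UTR, chr16:32631663-32631691 (+): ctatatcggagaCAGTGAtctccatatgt
Tfrc 3′ UTR, chr16:32631710-32631738 (+): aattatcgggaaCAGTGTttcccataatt

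The search asked for C, any 5 bases, CAGTGN and any 5 bases, on the transcript strand, where the last base of the loop was not G, with 5 stem pairs and G-T pairs allowed. This pattern stood in a 5′ UTR of 23 of 20916 genes (0.110%) and in a 3′ UTR of 100 of 21039 genes (0.475%). The other 5 members held no such letters in their UTRs. A match is a description of sequence and does not show that the element is used.

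The 6 libraries each pooled lesion tissue from 1 male and 1 female C57BL/6 mouse at 7 or 21 dpi, and all mice received the PT injury, a light-activated clot in cortical vessels. Ctrl mice were wild type (WT), with no treatment named for them. The paper's general methods give tamoxifen to knockout controls where relevant and IgG1 to antibody controls. Whether the Ctrl mice of these libraries received either is not stated. ADWA11 mice were WT and received an antibody against αvβ8, an integrin that activates latent TGFβ, from the day of injury and weekly thereafter. Tgfbr2-cKO mice carried Col1a2(creER) and Tgfbr2(flox) alleles, in which tamoxifen removes the TGFβ receptor from cells that express Col1a2. Each group at each time point was 1 library, and no test between conditions was run. The differences below compare libraries. Intervals are exact 95% intervals that cover counting error only. Nuclei called female or male from sex-linked transcripts stand for 1 mouse each, and the female-to-male difference within a library, which also holds any effect of sex, is the only measure here of spread between mice. Tissue of both mice was combined within each library, so this difference does not measure spread between libraries. The main ratios are set beside it. It was taken only in libraries with at least 20 UMIs of the gene in sexed nuclei of the class, which in named macrophages left out Tgfbr2-cKO at 7 dpi for Slc40a1, Hmox1, Tfrc, Slc11a1 and Slc48a1. The Tgfbr2-cKO and ADWA11 comparisons of a time point share its Ctrl library, so their values are given side by side.

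The libraries held 64798965 to 140310354 UMIs in 7205 to 14246 nuclei before filtering, and pairs of libraries shared 21 to 61 barcode sequences. Tgfbr2 itself in fibroblasts was at 244 CPM in cKO and 321 CPM in Ctrl lesions at 7 dpi, and at 193 and 232 CPM at 21 dpi. Reads from the 3′ end and from introns need not come from the removed exon, so these levels do not check the deletion. Neuronal marker genes, which macrophages and fibroblasts should lack, summed to 281 CPM in cKO macrophages and 210 CPM in cKO fibroblasts at 7 dpi and to no more than 9.83 CPM in either class of the Ctrl and ADWA11 libraries. The part of these markers in the results was not tested. Neurons numbered 4649 in the cKO library at 7 dpi, against 118 in Ctrl and 27 under ADWA11. Oligodendrocytes numbered 839, against 46 and 58. Whether the astrocytes and microglia of these libraries came from like tissue was not tested.

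Macrophages were taken as the clusters that passed markers chosen for them. A border-type-macrophage-like cluster (1990 nuclei) was led by Iigp1, Cd163, Gbp4 and Cbr2 and held Mrc1 at 2839 CPM. A Fabp4-macrophage-like cluster held 4517 nuclei, 3369 of them from ADWA11 at 21 dpi. The members were left out of the genes used for clustering, so Cd163 leading the first cluster was not built in. Interferon-induced genes were also among its leaders, and Lyve1, another border macrophage marker, was at 6.99 CPM, low but above the 0.033 to 0.425 CPM of the other 4 sub-clusters compared. These 6507 nuclei are called the named macrophages, of which the border-type cluster gave 89.2% and 41.5% in Ctrl, 47.6% and 17.4% under ADWA11, and 97.8% and 58.1% in Tgfbr2-cKO at 7 and 21 dpi. Only 46 named macrophages came from Tgfbr2-cKO at 7 dpi. This count depended on the clustering. With clusters drawn from log-normalised counts, the border-type cluster held 302 cKO and 137 Ctrl nuclei at 7 dpi and 636 and 133 at 21 dpi. A wider pool of 15793 nuclei added myeloid sub-clusters 2 and 3 and osteoclast-like cells. Sub-cluster 2 held 4475 nuclei, led by Dach1 and Myo1d, and sub-cluster 3 held 4001, 2783 of them from ADWA11 at 7 dpi. Sub-cluster 3 held the microglial genes Sall1 and Gpr34 at 26.9 and 59.0 CPM, against 119 and 96.3 CPM in microglia. Sub-cluster 2 and the named groups held Sall1 at 0.688 to 5.06 CPM and Gpr34 at 8.75 to 43.8 CPM. P2ry12, P2ry13 and Tmem119 were lower in sub-cluster 3 than in border-type macrophages. Whether sub-cluster 3 holds altered microglia was not tested. The wider pool was set up after the data had been seen. Microglia-like nuclei numbered 5915, with only 73 and 21 under ADWA11, fibroblast-like nuclei 10690 and astrocyte-like nuclei 2734.

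**Figure D1:**
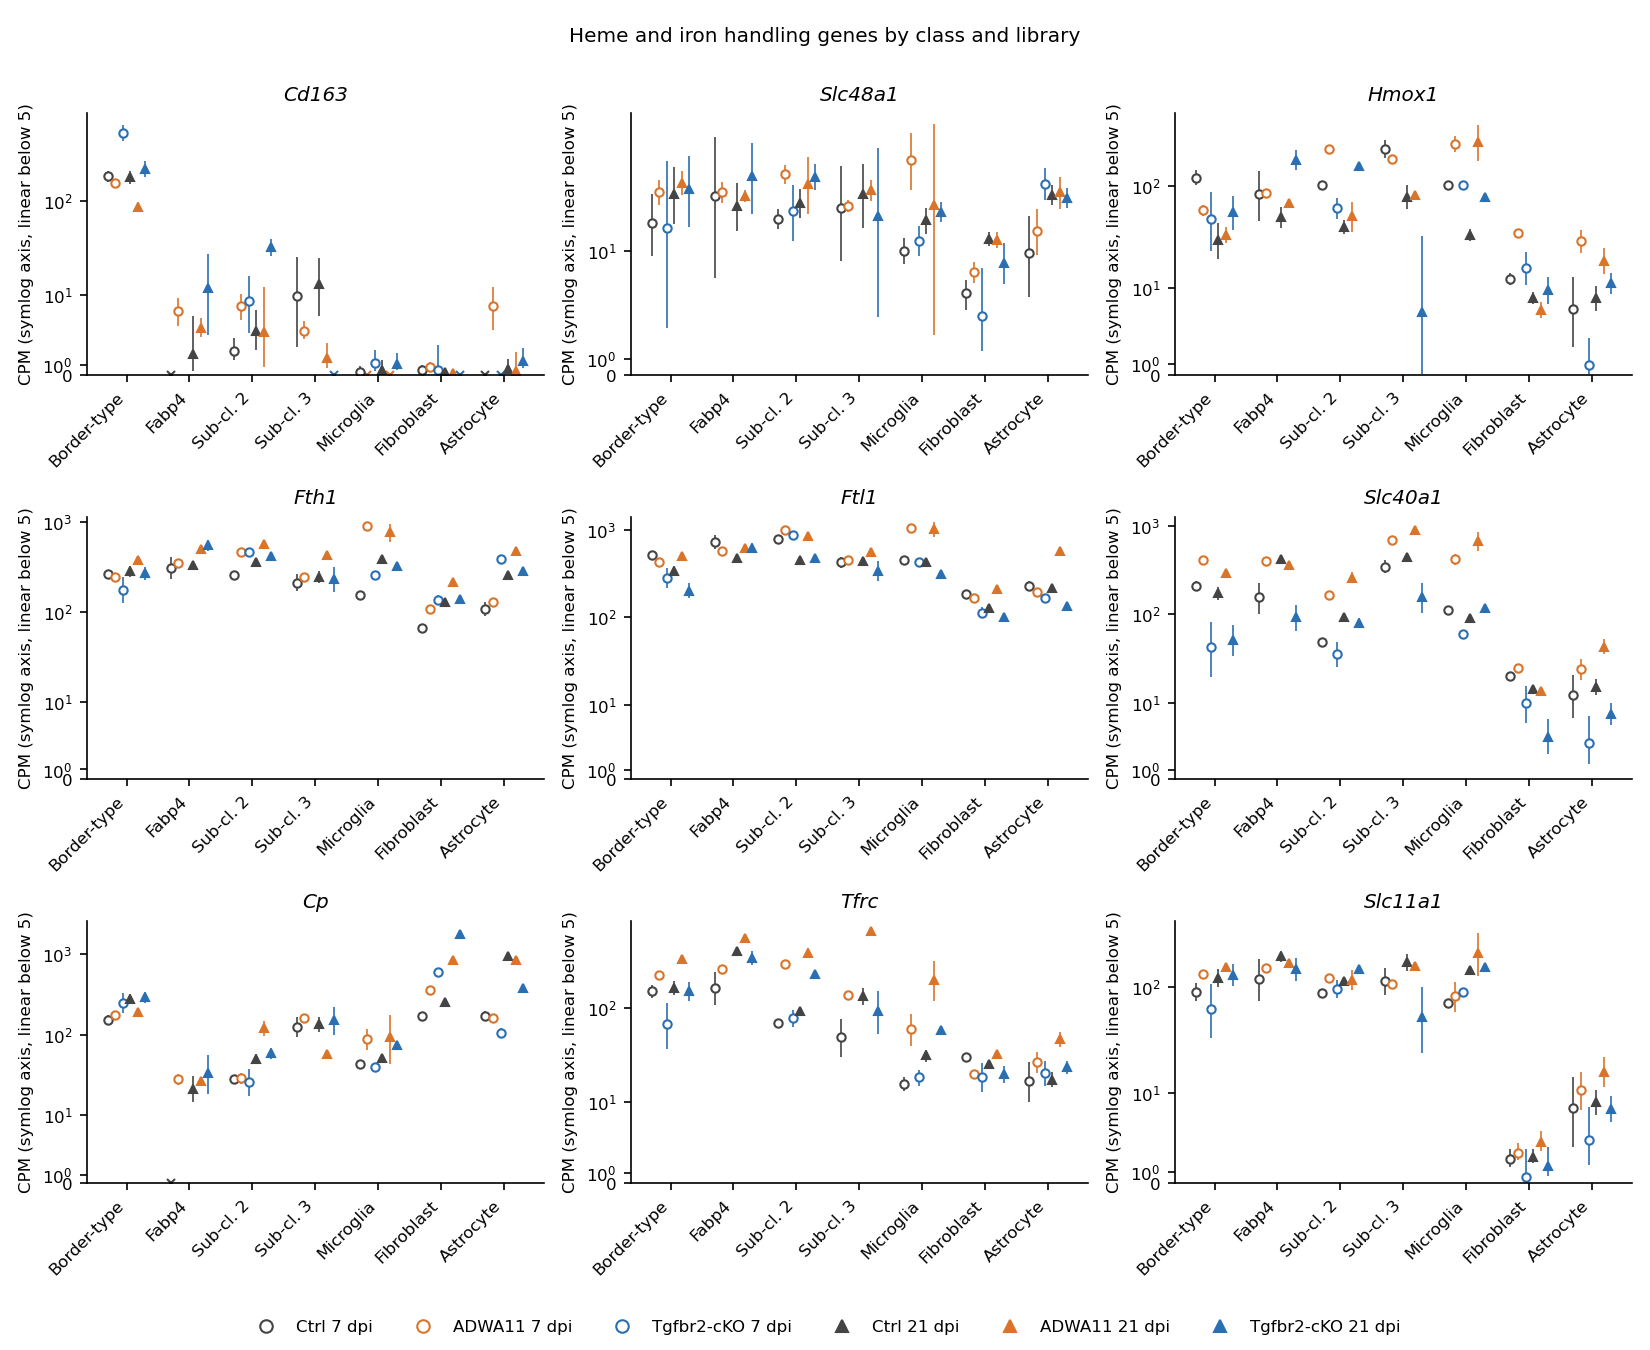
Levels of the 9 genes in CPM (vertical axis, log scale above a short linear stretch) by cell class and library, 1 panel per gene. Bars on the points are exact 95% counting intervals, crosses mark libraries with no UMI, and classes with under 20 nuclei in a library are left out. Cd163 sits in the border-type cluster, Slc40a1 and Tfrc are high in the macrophage groups and Cp is high in fibroblasts and astrocytes.

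The haemoglobin receptor gene Cd163 was close to a marker of border-type macrophages. In that cluster it stood at 183 CPM (Ctrl), 158 CPM (ADWA11) and 529 CPM (Tgfbr2-cKO) at 7 dpi and, in the same order of libraries, at 180, 86.5 and 221 CPM at 21 dpi. This order is kept wherever 3 values of a time point are given below. Microglia held at most 1.16 CPM and fibroblasts at most 0.825 CPM in any library. A Cd163 UMI was found in 13.1% to 33.3% of border-type nuclei and in at most 0.362% of microglia and 0.697% of fibroblasts. With every nucleus thinned to 2000 UMIs, the share ran from 8.49% to 29.3% in border-type nuclei and reached at most 0.154% and 0.362% in the other classes. The border-type shares lay above those of the classes that should lack the gene in every library.

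Across all named macrophages Cd163 read 159, 74.4 and 523 CPM at 7 dpi and 66.9, 18.0 and 127 CPM at 21 dpi, again in the order Ctrl, ADWA11, Tgfbr2-cKO. The log2 ratio to Ctrl was 1.71 (1.37 to 2.05) and 0.93 (0.57 to 1.28) in cKO and -1.10 (-1.32 to -0.87) and -1.89 (-2.17 to -1.62) under ADWA11. Within the border-type cluster alone, which made up a smaller part of the ADWA11 pools, the ADWA11 ratios were -0.21 and -1.05. Female nuclei held more of this transcript than male nuclei in 4 of 6 libraries, for example 965 against 132 CPM in cKO and 247 against 71.6 CPM in Ctrl at 7 dpi. Male nuclei held more in Ctrl at 21 dpi, with 91.4 against 59.0 CPM, and under ADWA11 at 21 dpi, where the female level was 14.1 CPM. The female-to-male difference reached 2.87 on the log2 scale, larger than any of the pooled ratios above. Within each sex the ADWA11 ratio was below 0 at both times, at -0.82 (-1.09 to -0.55) in female and -1.34 (-1.92 to -0.73) in male nuclei at 7 dpi and at -2.06 and -2.19 at 21 dpi. The cKO ratio was 1.97 and 0.88 (-0.14 to 1.83) at 7 dpi but went opposite ways at 21 dpi, at 2.81 and -0.57 (-1.24 to 0.09). With clusters drawn from log-normalised counts the early cKO ratio was -1.61, so its direction depended on which nuclei were called macrophages. The early ADWA11 direction did too. In the wider pool it stood at 23.1 against 20.1 CPM in Ctrl, with ratios of -0.10 in female and 0.65 (0.11 to 1.22) in male nuclei.

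Slc48a1, the heme transporter gene of the phagolysosome, was low and even among macrophages. Its level in named macrophages was 16.6, 25.5 and 14.3 CPM at 7 dpi and 22.2, 24.9 and 29.7 CPM at 21 dpi, on 22, 245, 3, 51, 561 and 28 UMIs in all. No ratio to Ctrl passed 2-fold, nor did the ratio between the Ctrl libraries. Oligodendrocytes held more than macrophages in the libraries with over 50 of them: 62.6 CPM (ADWA11, 7 dpi), 77.0 and 75.2 CPM (Tgfbr2-cKO, 7 and 21 dpi) and 77.7 CPM (Ctrl, 21 dpi). Fibroblasts held 3.71 to 12.2 CPM. Slc48a1 overlaps Hdac7 on the opposite strand.

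Hmox1, which encodes the enzyme that breaks heme, was higher at 7 dpi than at 21 dpi in Ctrl lesions in each of the 4 classes except astrocytes. Named macrophages held 116, 73.2 and 47.6 CPM at 7 dpi and 42.6, 62.3 and 112 CPM at 21 dpi. In these nuclei Ctrl was the highest library at the early time and the lowest at the late time. In the wider pool the 7 dpi levels were 115, 165 and 129 CPM, with Ctrl lowest, and the ADWA11 ratio was 0.52 where the named macrophages gave -0.67. The ratio of the 21 dpi to the 7 dpi Ctrl library was -1.45 (-1.83 to -1.08) in macrophages and -1.62 in microglia, which read 102 and 33.3 CPM. Osteoclast-like cells gave the highest early levels, at 243, 285 and 405 CPM at 7 dpi.

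At 21 dpi, Hmox1 in Tgfbr2-cKO exceeded Ctrl by 1.40 (0.99 to 1.81) in named macrophages and by 1.25 (1.01 to 1.49) in microglia, where it read 79.0 against 33.3 CPM. In myeloid sub-cluster 2 the levels were 157 and 39.9 CPM. The differences were larger in female nuclei. In named macrophages the ratio was 2.05 in female and 0.51 (-0.39 to 1.45) in male nuclei, and in microglia it was 2.42 and -0.34. In the wider pool of cKO macrophages at 21 dpi, female nuclei held 193 CPM and male nuclei 32.6 CPM, and the cKO-to-Ctrl ratio was 2.07 and -0.34. At 7 dpi the sexes also differed within Ctrl, with 52.1 CPM in female and 244 CPM in male named macrophages. The largest female-to-male difference was 2.23, above every Hmox1 ratio in named macrophages, and in microglia it was 1.85, above the ratios of -1.62 and 1.25.

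Fth1 and Ftl1, the ferritin chains, were among the members detected in every class and differed little between libraries in macrophages. Fth1 in named macrophages was at 270, 303 and 214 CPM at 7 dpi and 314, 479 and 395 CPM at 21 dpi. Ftl1 was at 543, 509 and 352 CPM at 7 dpi and 426, 606 and 392 CPM at 21 dpi. Neither gene passed 2-fold there in any comparison. Under ADWA11 at 21 dpi the ratios were 0.61 (0.50 to 0.72) for Fth1 and 0.51 (0.42 to 0.60) for Ftl1, both within the largest female-to-male differences of 0.71 and 1.30. Among classes with at least 50 nuclei, an unnamed cluster numbered 4 held the most Ftl1 in 6 of 6 libraries. It also held the most Fth1 in all but ADWA11 at 7 dpi, with Fth1 at 3490 CPM in Tgfbr2-cKO at 21 dpi. This cluster raised fibroblast markers but stayed unnamed for its low UMIs, with a median of 1493. Of its nuclei 20.7% were called doublets. The part of depth and nucleus quality in its ferritin levels was not tested. Ftl1 overlaps Gm22133 and Gm10252, and processed copies of both ferritin genes could share reads, so these levels are uncertain.

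Ferritin differed more outside macrophages. In fibroblasts, Fth1 was at 67.2, 108 and 136 CPM at 7 dpi and 129, 216 and 141 CPM at 21 dpi, so that the Ctrl library was lowest at both times. The cKO ratio at 7 dpi was 1.01 (0.81 to 1.21), with 142 against 66.6 CPM in female and 131 against 61.9 CPM in male nuclei, and it exceeded the largest female-to-male difference of 0.38. Astrocytes held Fth1 at 109, 128 and 391 CPM at 7 dpi and 261, 478 and 285 CPM at 21 dpi. Their cKO ratio at 7 dpi was 1.84 (1.56 to 2.12), past the largest female-to-male difference of 0.58. Oligodendrocyte precursor markers in the astrocyte class also differed between these libraries, at 5353 CPM in Ctrl and 918 CPM in cKO, and their part was not tested. In microglia, Fth1 was at 156 CPM in Ctrl at 7 dpi and 393 CPM at 21 dpi, a ratio of 1.34. The higher cKO level at 7 dpi was seen in many classes. Microglia held 260 against 156 CPM in Ctrl, oligodendrocyte precursors 124 against 84.7 CPM and unnamed cluster 4 held 1975 against 875 CPM. Border-type macrophages went the other way, at 178 against 264 CPM. Mitochondrial genes gave 0.157% of UMIs in this cKO library and 0.997% in Ctrl, and the part of such library differences was not tested.

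The light chain gene Ftl1 differed in another direction in cKO fibroblasts. It was at 185, 166 and 113 CPM at 7 dpi and 129, 213 and 102 CPM at 21 dpi, which put cKO lowest at both times. The cKO ratio was -0.71 at 7 dpi, where Fth1 gave 1.01, and -0.34 at 21 dpi. In astrocytes Ftl1 was at 227, 193 and 165 CPM at 7 dpi and 215, 571 and 134 CPM at 21 dpi. The late ADWA11 library stood apart, with a ratio of 1.41 (1.30 to 1.52) and 526 and 602 CPM in female and male nuclei against 197 and 239 CPM in Ctrl. This exceeded the largest female-to-male difference of 0.64. Other classes were also higher under ADWA11 than in Ctrl at 21 dpi, such as endothelial cells at 506 against 316 CPM and T cells at 519 against 325 CPM. The cKO level at 7 dpi was lower in oligodendrocyte precursors as well, at 110 against 199 CPM. In myeloid sub-cluster 2 it was higher, at 879 against 790 CPM. The part of shifts shared across a library was not tested.

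Slc40a1, the iron exporter gene, gave the lowest macrophage ratios of the 9 in both Tgfbr2-cKO libraries. It lies on chromosome 1 (45908068 to 45926523, minus strand). Named macrophages held 204, 405 and 42.8 CPM at 7 dpi (270, 3900 and 9 UMIs) and 330, 351 and 70.0 CPM at 21 dpi (760, 7894 and 66 UMIs). Both cKO libraries lay below all 4 others. The cKO ratio was -2.25 (-3.40 to -1.31) at 7 dpi and -2.24 (-2.62 to -1.87) at 21 dpi. Female nuclei gave -1.76 and -2.27 and male nuclei -3.57 and -1.85, and both pooled ratios exceeded 1.21, the largest female-to-male difference of the 5 libraries that gave one. The early cKO library gave none, with 3 UMIs in nuclei of each sex. Every way of processing tried kept the cKO level below Ctrl, with early ratios of -3.57 to -0.89 and late ratios of -3.14 to -1.29, and only the wider pool at 7 dpi was not past 2-fold.

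The lower cKO level was seen in both named groups, was small in sub-cluster 2 and was not seen in osteoclast-like cells at 7 dpi. In border-type macrophages Slc40a1 was at 43.3 against 211 CPM at 7 dpi and 51.8 against 174 CPM at 21 dpi, ratios of -2.29 (-3.43 to -1.34) and -1.74 (-2.39 to -1.14). Fabp4-macrophage-like nuclei held 92.4 against 420 CPM at 21 dpi, a ratio of -2.19, and only 1 such nucleus came from cKO at 7 dpi. Sub-cluster 2 gave most cKO macrophages and stayed unnamed. It held the most Spp1 of the sub-clusters compared, but Gpnmb, Fabp5, Trem2, Cd9 and Cd63 of that marker list were each higher in another. Its Slc40a1 levels were 36.0 against 48.3 CPM and 80.3 against 93.1 CPM, ratios of -0.43 and -0.21. Osteoclast-like cells, 17.3% of the cKO pool at 7 dpi, then held 39.6 CPM in cKO (14 UMIs) against 12.4 CPM in Ctrl (6 UMIs), a ratio of 1.68 (0.21 to 3.35). The wider pool as a whole read -0.89 (-1.26 to -0.53) and -1.29 (-1.47 to -1.12), against a largest female-to-male difference of 0.91. The size of the difference therefore depended on which macrophages were counted.

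ADWA11 macrophages held more of the exporter transcript in the wider pool, but not in every group. Slc40a1 in the wider pool was at 74.5, 525 and 40.3 CPM at 7 dpi and 196, 427 and 79.9 CPM at 21 dpi. The ADWA11 ratio of 2.82 (2.72 to 2.92) at 7 dpi and 1.12 (1.05 to 1.20) at 21 dpi was past the female-to-male spread at both times. Female nuclei gave 3.20 and 1.34, and male nuclei 2.44 and 1.24. Sub-cluster 3, which came mainly from ADWA11 mice, held the most Slc40a1 of the classes with at least 50 nuclei in the Ctrl and ADWA11 libraries, at 345 and 690 CPM at 7 dpi and 443 and 895 CPM at 21 dpi. Within sub-cluster 3 the ratios were 1.00 and 1.01, and within sub-cluster 2 they were 1.77 and 1.48. Border-type macrophages at 21 dpi held 294 CPM under ADWA11 against 174 CPM in Ctrl. Fabp4-macrophage-like nuclei then went the other way, at 362 against 420 CPM. They made up 60.8% of the ADWA11 pool and 16.6% of the Ctrl pool at 21 dpi, and the part of this make-up was not tested. In named macrophages the early ratio was 0.99 (0.81 to 1.17), carried by female nuclei at 1.63 against 0.10 in male nuclei, and the late ratio was 0.09 (-0.02 to 0.20).

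The share of nuclei with a Slc40a1 UMI moved the same way. It was 33.9%, 54.0% and 17.4% of named macrophages at 7 dpi and 33.3%, 44.6% and 18.1% at 21 dpi. Thinned to 2000 UMIs, the shares were 22.3%, 35.4% and 9.52%, then 25.8%, 29.8% and 5.84%. Oligodendrocyte precursors, taken as a class with little of this gene, gave thinned shares of 0% to 4.88% with their highest value under ADWA11 at 7 dpi, where they held 41.7 CPM against 12.2 CPM in Ctrl. The higher ADWA11 level was not seen in macrophages alone. At 7 dpi T cells held 89.0 CPM under ADWA11 against 10.7 CPM in Ctrl, dendritic cells 75.1 against 6.33 CPM, mural cells 109 against 34.6 CPM and endothelial cells 99.7 against 39.8 CPM. At 21 dpi T cells held 120 against 30.8 CPM. The part of free RNA in the macrophage levels was not tested.

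Microglia held less Slc40a1 than named macrophages in Ctrl but not in cKO. They read 112 and 60.7 CPM in Ctrl and cKO at 7 dpi, a ratio of -0.88 (-1.05 to -0.71), and 92.1 and 117 CPM at 21 dpi, a ratio of 0.35. The few ADWA11 microglia read 415 and 663 CPM. In fibroblasts the levels were 20.2, 24.9 and 10.1 CPM at 7 dpi and 14.5, 13.7 and 4.28 CPM at 21 dpi, again lowest in cKO. Among classes with at least 50 nuclei, microglia held the most Slc40a1 in both cKO libraries. Endothelial cells came next at 21 dpi, with 95.4 CPM (73.0 to 123), and the intervals of the 2 classes overlapped.

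Cp, the ferroxidase gene, was high in fibroblasts, mural cells and astrocytes and was also found in endothelial cells and border-type macrophages. In Ctrl at 7 dpi endothelial cells, at 223 CPM, lay above fibroblasts and astrocytes, at 169 and 172 CPM. Fibroblasts held 169, 363 and 596 CPM at 7 dpi and 256, 842 and 1778 CPM at 21 dpi, so that both perturbed libraries lay above Ctrl at each time and cKO was the highest. The cKO ratio was 1.82 (1.71 to 1.92) at 7 dpi and 2.79 (2.75 to 2.84) at 21 dpi. The ADWA11 ratio was 1.10 (1.04 to 1.16) and 1.72 (1.67 to 1.76). All 4 ratios exceeded the largest female-to-male difference, 0.74. Female and male fibroblasts gave 2.12 and 1.68 in cKO at 7 dpi, 2.19 and 3.38 in cKO at 21 dpi, 1.20 and 1.05 under ADWA11 at 7 dpi, and 0.97 and 2.33 under ADWA11 at 21 dpi. The summed neuronal markers were also higher in cKO fibroblasts, at 210 and 61.1 CPM against 2.22 to 8.44 CPM in the other libraries, and their part was not tested. Cp lies on chromosome 3 (19957054 to 20009145, plus strand) and overlaps Hps3 on the opposite strand.

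The Cp difference ran through several kinds of fibroblast. In fibroblast sub-cluster 1 the 7 dpi levels were 83.8, 242 and 521 CPM in Ctrl, ADWA11 and cKO. In sub-cluster 0 the 21 dpi levels were 283, 770 and 1055 CPM, whereas its few nuclei at 7 dpi (50, 102 and 31) held 189, 152 and 171 CPM with Ctrl the highest. Sub-cluster 3 already held 459 CPM in Ctrl at 7 dpi, with 874 and 798 CPM in the perturbed libraries, and reached 1136, 2918 and 1619 CPM at 21 dpi. In this sub-cluster, ADWA11 and not cKO was the higher of the perturbed libraries. Sub-cluster 5 was almost a cKO group, with 302 of 320 nuclei from cKO at 21 dpi, where Cp stood at 2007 CPM, so in it the cluster and the library cannot be told apart. These 302 were most of the 475 cKO fibroblasts at 21 dpi, and no Ctrl nucleus lay in this sub-cluster. At 21 dpi, cKO and Ctrl shared sub-clusters 0 and 3 with over 50 nuclei each, and there their levels lay closer together than in the whole class. At 7 dpi they shared sub-clusters 1 and 3 in this way. In sub-cluster 1 the levels then lay further apart than in the whole class, which read 596 against 169 CPM.

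Cp UMIs were found in 34.4%, 58.1% and 64.6% of fibroblasts at 7 dpi and 46.2%, 77.5% and 92.4% at 21 dpi. Thinned, the shares were 18.7%, 32.7% and 46.4%, then 27.4%, 54.8% and 79.9%. Oligodendrocyte precursors gave thinned shares of 4.07% to 10.5%. Mural cells were also higher in cKO, at 622 against 280 CPM at 7 dpi, on under 50 cKO nuclei, and at 1620 against 857 CPM at 21 dpi. Endothelial cells held 223, 157 and 296 CPM and then 484, 429 and 452 CPM, with no ratio to Ctrl past 2-fold.

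Astrocytes went the other way. Their Cp level was 172, 162 and 106 CPM at 7 dpi and 955, 843 and 376 CPM at 21 dpi. Between the Ctrl libraries it was higher by 2.47 (2.26 to 2.68) at the later time. The cKO ratio to Ctrl was -0.70 at 7 dpi and -1.34 (-1.41 to -1.28) at 21 dpi. At 21 dpi female astrocytes held 281 against 1075 CPM and male astrocytes 459 against 699 CPM, and the ratio exceeded the largest female-to-male difference of 0.71. Oligodendrocyte precursor markers in the astrocyte class also differed, at 5353 and 2207 CPM in Ctrl and 918 and 842 CPM in cKO at 7 and 21 dpi. Their part in this result was not tested. ADWA11 gave -0.09 and -0.18 in astrocytes.

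Cp in the named macrophages sat mainly in the border-type cluster, at 152, 175 and 250 CPM at 7 dpi and 279, 192 and 290 CPM at 21 dpi. Fabp4-macrophage-like nuclei held at most 33.2 CPM. Myeloid sub-cluster 3 also held Cp, at 126 CPM in Ctrl and 162 CPM under ADWA11 at 7 dpi and at 134 and 57.7 CPM at 21 dpi. None of the border-type ratios passed 2-fold. Fibroblast markers in named macrophages summed to 28.5 and 48.8 CPM in cKO and to 324 to 772 CPM in the other 4 libraries. Cp in named macrophages read 247 and 175 CPM in cKO and 53.7 to 133 CPM elsewhere. The border-type share of the pool was also highest in cKO at each time point (97.8% and 58.1%), and the part of either in the Cp level was not tested.

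Tfrc, the transferrin receptor gene, was highest under ADWA11 in macrophages at 21 dpi. Named macrophages held 150, 239 and 66.6 CPM at 7 dpi and 307, 502 and 230 CPM at 21 dpi, an order of ADWA11 above Ctrl above cKO at both times. In the wider pool the levels were 76.1, 182 and 68.5 CPM and then 164, 502 and 217 CPM. There the ADWA11 ratio was 1.26 (1.16 to 1.36) at 7 dpi and 1.62 (1.53 to 1.70) at 21 dpi, both past the largest female-to-male difference of 1.08. Female nuclei gave 0.86 and 1.49, and male nuclei 1.57 and 2.28.

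Several macrophage groups shared this Tfrc difference. In sub-cluster 2, ADWA11 and Ctrl stood at 289 and 69.1 CPM at 7 dpi and at 378 and 91.8 CPM at 21 dpi, ratios of 2.06 and 2.04. In border-type macrophages the ratios were 0.57 and 1.02. Some other classes were also higher under ADWA11. T cells held 71.5 against 33.8 CPM in Ctrl at 7 dpi and 111 against 57.8 CPM at 21 dpi. Dendritic cells held 83.7 against 29.5 CPM at 21 dpi but 40.6 against 56.1 CPM at 7 dpi. Fibroblasts were also lower at 7 dpi, at 20.1 against 29.9 CPM. The part of free RNA in the Tfrc levels was not tested. The cKO ratio in named macrophages was -1.17 (-2.07 to -0.39) at 7 dpi and -0.42 at 21 dpi, where female and male nuclei went opposite ways at -0.96 and 0.89. Neither passed the female-to-male spread of up to 1.33. In microglia the Ctrl and cKO levels were 15.6 and 18.3 CPM early and 31.2 and 58.6 CPM late, and fibroblasts 18.5 to 32.5 CPM in all libraries.

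Slc11a1, the phagosomal metal transporter gene, was a gene of the myeloid classes. Named macrophages held 93.7, 144 and 66.6 CPM at 7 dpi and 168, 166 and 138 CPM at 21 dpi. Ctrl and cKO microglia held 70.3 and 90.2 CPM early and 144 and 155 CPM late. Both classes were thus higher in the later Ctrl library, by 0.84 (0.55 to 1.15) and 1.03. The largest female-to-male difference in named macrophages was 0.43, the smallest among the 9 genes. Fibroblasts held at most 3.50 CPM, and T cells 13.2 to 34.3 CPM.

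**Figure D2:**
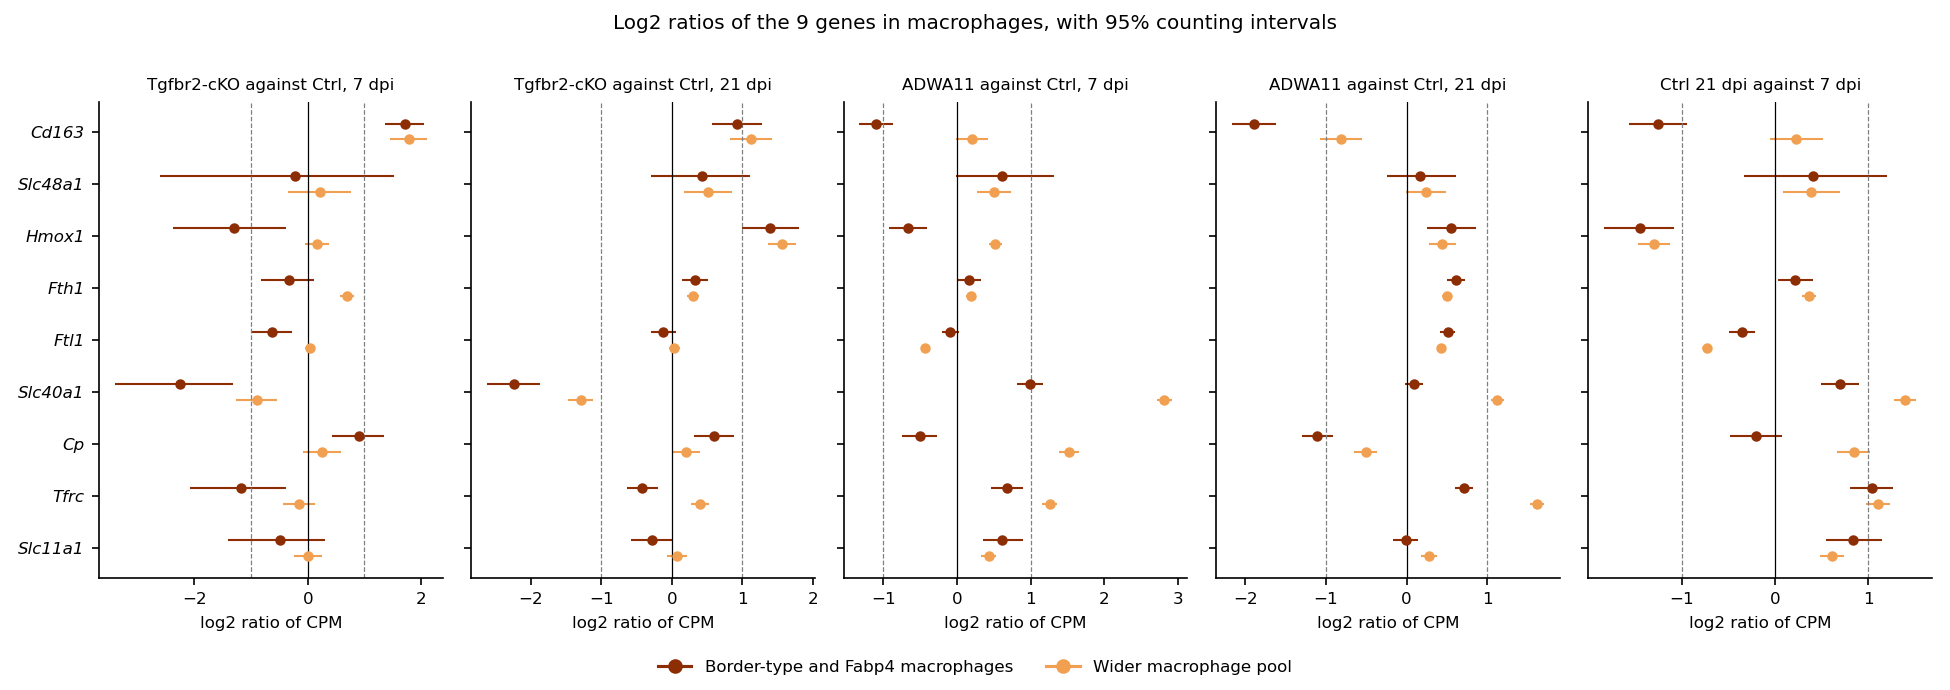
Log2 ratios of the 9 genes (horizontal axis, with exact 95% counting intervals) in the named macrophages and in the wider pool, 1 panel per comparison. Slc40a1 is below 0 in both cKO panels for both pools, whereas Hmox1 in the cKO panel at 7 dpi is at -1.29 in the named macrophages and 0.16 in the wider pool.

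Counted together, the 9 genes held no common direction in macrophages. In cKO at 7 dpi, 1 was past 2-fold up (Cd163) and 3 down (Hmox1, Slc40a1, Tfrc), where 16.8% of all genes with at least 20 UMIs in the pair passed 2-fold. Their median log2 ratio was -0.49, against -0.06 over all genes. In cKO at 21 dpi, Hmox1 was past 2-fold up and Slc40a1 down, with a background of 9.61% and medians of 0.33 and 0.01. Under ADWA11, Cd163 passed 2-fold down at 7 dpi (background 12.2%, medians 0.17 and 0.04), and Cd163 and Cp at 21 dpi (background 12%, medians 0.17 and -0.04). The border-type share of these pools was 47.6% against 89.2% in Ctrl at 7 dpi and 17.4% against 41.5% at 21 dpi. Within that cluster Cd163 was at 158 against 183 CPM at 7 dpi and 86.5 against 180 CPM at 21 dpi. Cp at 21 dpi was at 192 against 279 CPM there and 26.6 against 21.2 CPM in Fabp4-macrophage-like nuclei. Between the Ctrl libraries, Tfrc was up and Hmox1 and Cd163 down (background 12.1%, medians 0.22 and 0.08), and only Hmox1 kept its direction in both sexes. Cd163 in border-type macrophages of these libraries read 183 CPM at 7 dpi and 180 CPM at 21 dpi. The part of pool make-up in the counts was not tested. A count of 1 of 9 is close to these backgrounds, and the 4 of 9 in cKO at 7 dpi rest on the 46 nuclei of that library.

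In the wider pool the ADWA11 ratios past 2-fold were all upward. At 7 dpi 3 members were past 2-fold up (Slc40a1, Cp, Tfrc) and none down, beside 14.3% of all genes, with a median of 0.50 against 0.03. At 21 dpi Slc40a1 and Tfrc were past 2-fold up and none down, beside 15%, with a median of 0.43 against -0.06. All 5 of these ratios had the same direction in female and male nuclei, and 4 were past 2-fold in both. Within groups, Cp under ADWA11 and in Ctrl at 7 dpi was at 28.3 against 27.7 CPM in sub-cluster 2, 162 against 126 CPM in sub-cluster 3 and 175 against 152 CPM in border-type macrophages, whereas sub-cluster 3 made up 54.7% of the ADWA11 pool and 3.43% of the Ctrl pool. In cKO, Cd163 passed 2-fold up at 7 dpi (background 13.4%), and at 21 dpi Hmox1 and Cd163 up and Slc40a1 down (background 12.4%). Between the Ctrl libraries, Slc40a1 and Tfrc were up and Hmox1 down (background 12.3%).

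In microglia, 8 members had enough UMIs. None passed 2-fold in cKO at 7 dpi, where 14.8% of all genes did. Only Hmox1 did at 21 dpi, where 10.2% did. With clusters drawn from log-normalised counts, 1669 cKO and 1658 Ctrl microglia of 7 dpi lay in different clusters. The ADWA11 libraries held only 73 and 21 microglia. At 7 dpi all of the 8 but Slc11a1 were past 2-fold up, beside 22.2% of all genes and with a median of 1.62 against 0.11. All 7 had the same direction in both sexes, and 5 were past 2-fold in both. Fth1 stood at 902 against 156 CPM, Ftl1 at 1065 against 459 CPM and Hmox1 at 259 against 102 CPM. At 21 dpi Slc40a1, Hmox1, Tfrc and Ftl1 were up, each past 2-fold in both sexes, beside 44.3% of all genes and with a median of 1.10 against 0.39. Without the 5 nuclei richest in the gene, Cp at 7 dpi read -0.38 and Tfrc at 21 dpi -0.68. Between the Ctrl libraries, Fth1 and Slc11a1 were past 2-fold up and Hmox1 down, beside 14.3% of all genes, and all 3 had the same direction in both sexes. Slc11a1 lay just past 2-fold, and the alternative TMM scaling, with factors of 0.986 at 21 dpi and 0.899 at 7 dpi, would put it below.

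In fibroblasts, Cp and Fth1 were past 2-fold up and Slc40a1 and Slc11a1 down in cKO at 7 dpi, 4 of 8 members beside 13.6% of all genes. Fth1 lay just past 2-fold, and the alternative TMM scaling, with factors of 1.07 in cKO and 0.955 in Ctrl, would put it below. Slc40a1 also lay just past 2-fold, at 10.1 CPM (19 UMIs) against 20.2 CPM. It stood at 7.90 against 14.9 CPM in sub-cluster 1 and 18.1 against 22.3 CPM in sub-cluster 3. Sub-cluster 2 held 56.8 CPM in Ctrl but only 3 cKO nuclei at 7 dpi. Slc11a1 rested on 1 cKO UMI against 32 in Ctrl (ratio -1.95, -7.30 to 0.63) and did not keep its direction in both sexes. In cKO at 21 dpi Cp was up and Slc40a1 down, beside 18.4%, both also past 2-fold in each sex. The 302 cKO nuclei of sub-cluster 5, which held no Ctrl nuclei, then had Slc40a1 at 3.05 CPM. Sub-cluster 3 held 12.4 CPM in cKO against 19.3 CPM in Ctrl, and sub-cluster 0 held 3.91 CPM (3 UMIs) against 11.3 CPM. Under ADWA11, Cp and Hmox1 were up at 7 dpi (background 10.2%) and Cp alone at 21 dpi (background 8.33%). Hmox1 stood at 35.1 against 12.3 CPM in the early ADWA11 library, a ratio of 1.51 within the largest female-to-male difference of 1.76. Between the Ctrl libraries, Slc48a1 alone was past 2-fold, at 12.2 against 5.12 CPM, beside 21%. Medians lay between -0.58 and 0.49 and those of all genes between -0.01 and 0.09.

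In astrocytes, Fth1 and Slc48a1 were past 2-fold up and Slc40a1 down in cKO at 7 dpi, 3 of 6 members beside 19.3% of all genes. Cp alone, down, passed in cKO at 21 dpi, beside 10.6%. Under ADWA11, Hmox1 passed at 7 dpi (background 8.78%). At 21 dpi, 4 of 8 members were up and none down, namely Ftl1, Slc40a1, Hmox1 and Tfrc, beside 7.05% of all genes and with a median of 1.08 against 0.04. Hmox1 went against its pooled ratio of 1.22 in both female nuclei (-0.50) and male nuclei (-0.28). Slc40a1 then stood at 43.4 against 15.3 CPM and Tfrc at 46.2 against 17.4 CPM. The Slc40a1 ratio lay within its largest female-to-male difference of 2.46. Myeloid markers in astrocytes summed to 407 CPM in that library and to 267 CPM in Ctrl, and their part was not tested. Between the Ctrl libraries, Cp, Slc48a1 and Fth1 were up, beside 20.7%.

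The rest of the heme and iron pathways was read from lists chosen by known function, with earlier results of these data known. Of 21 further genes of iron transport, storage and sensing, 14 to 17 had enough UMIs in named macrophages. None was past 2-fold up against Ctrl. Lcn2 was down in cKO at 21 dpi, 1 of 16 beside 9.61% of all genes, and Lcn2 and Slc22a17 were down under ADWA11 at 21 dpi, 2 of 17 beside 12%, shares close to the background. The medians of this list lay between -0.18 and 0.09. Lcn2, which encodes a siderophore-binding protein, stood at 2.84 against 11.3 CPM, and Slc22a17, its proposed receptor gene, at 2.75 against 9.56 CPM. Of 7 genes driven by the oxidative stress factor NRF2, 4 were measured in cKO at 7 dpi, with Gclm and Txnrd1 down (background 16.8%) and a median of -0.53 against -0.06 over all genes, on 2 and 8 UMIs in cKO. At 21 dpi 6 were measured, with Gclm up (background 9.61%) and a median of 0.53 against 0.01. Gclm, a subunit of the enzyme that starts glutathione synthesis, was at 9.51 against 41.6 CPM (log2 ratio -2.13) at 7 dpi and at 67.9 against 30.4 CPM (1.16) at 21 dpi. Txnrd1, a thioredoxin reductase gene, was at 38.0 against 79.4 CPM. Slc7a11, a cystine transporter gene, was at 31.7 CPM in Ctrl at 21 dpi against 11.3 CPM at 7 dpi, a ratio of 1.48, and was 1 of 5 measured beside 12.1% of all genes. Blvra, whose enzyme reduces the biliverdin that heme oxygenase makes, was at 42.8 against 93.0 CPM in cKO at 7 dpi, a ratio of -1.12 (-2.28 to -0.15). It was the only one of 12 further genes of heme uptake, breakdown and export past 2-fold against Ctrl, 1 of 7 measured in that comparison (background 16.8%). Of the 9 heme synthesis genes, Alad and Urod were down under ADWA11 at 7 dpi (2 of 8 measured, background 12.2%) and Alad was up at 21 dpi (1 of 9, background 12%), at 3.60 against 0.434 CPM, a ratio of 3.05 (0.53 to 8.37) that rests on 1 UMI in Ctrl.

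Haemoglobin transcripts themselves, which come from red cell precursors and reticulocytes, stood higher in ADWA11 than in Ctrl macrophages, on few Ctrl UMIs. Hbb-bs in named macrophages was at 12.8 against 0.756 CPM at 7 dpi, a ratio of 4.08 (1.58 to 9.40) on 1 UMI in Ctrl. Hba-a2 was at 5.93 against 1.51 CPM, on 2 Ctrl UMIs. The intervals of Hba-a1 at 7 dpi (1.06, -0.12 to 2.54) and of Hbb-bs at 21 dpi (1.75, -0.16 to 4.83) crossed 0. In the wider pool, Hbb-bs stood at 1.94, 13.6 and 0 CPM at 7 dpi and 1.98, 25.7 and 1.18 CPM at 21 dpi, where the 0 allows up to 1.73 CPM. Fibroblasts showed it as well, with 4 of 4 haemoglobin genes past 2-fold up under ADWA11 at 7 dpi (background 10.2%) and a median of 2.20 against 0.08 over all genes. The part of blood left after perfusion was not tested.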

How the data were processed

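Nuclei sorted with DAPI from dissected PT lesions after perfusion were profiled with 10x 3′ chemistry. The authors deposited filtered matrices of raw UMI counts per gene and barcode, aligned to mm10 with Cell Ranger 7.2.0 per the file headers (the submitters' processing notes name 7.1.0). The 6 libraries held 67360 barcodes with median UMIs of 4601.5 to 8222.5, and 61917 passed a filter that removed, in each library, the outer 2.5 percentiles of UMIs and genes and the top 2.5 of mitochondrial share. Nuclei were clustered with Seurat 5.3.0 and sctransform 0.4.2 (R 4.3.3) on 3000 variable genes and 30 principal components at resolution 0.5, then myeloid nuclei at 0.25 and fibroblasts at 0.2, with the 9 genes and the pathway genes left out of the variable genes. A cluster was named from at least 3 markers raised 2-fold and found in 5% of its nuclei. Others stayed unnamed, and the names may differ from those of the study. Doublets called by likeness to simulated pairs at an assumed rate (6339) were kept, but a fibroblast sub-cluster (647 nuclei) in which 82.7% had been called was left out. Sums, ratios, shares and exact Poisson, conditional binomial and Clopper-Pearson intervals came from Python 3.11.15 with numpy 2.4.6, scipy 1.17.1, pandas 2.3.3 and scikit-learn 1.9.0, and figures from matplotlib 3.10.9. edgeR 4.0.16 gave TMM factors for an alternative scaling only. With 1 library per group no count model was fitted. Genes with 20 UMIs in the 2 libraries compared were called past 2-fold at a log2 ratio of 1 either way. A library at 0 was given a floor of 3 counts. The interval and ratio code was tested on simulated data. The genes named are all 9 members, pathway genes past 2-fold on 50 UMIs or more in named macrophages (up to 5 per list and comparison), a few on fewer UMIs chosen after their values were seen (Urod, Alad at 7 dpi and Lcn2 in cKO) and, for each member, the 2 genes most correlated with it. The members and lists were chosen with earlier results of these data known. Of 32285 features, 32158 were matched to GENCODE M21.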

Additional observations from a re-analysis of the deposited data

Results flagged for a closer look

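The ADWA11 ratio went opposite ways at the 2 time points for a pair of genes, in nuclei of both sexes each time, and the difference between time points was not tested. Hmox1 in fibroblasts gave a log2 ratio to Ctrl of 1.51 at 7 dpi and -0.40 at 21 dpi. The fibroblasts of 21 dpi differed in make-up. Sub-cluster 2 held 1389 Ctrl and 103 ADWA11 nuclei, and sub-cluster 0 held 1874 and 2206. Hmox1 in sub-cluster 2 then stood at 8.39 CPM in Ctrl and 10.4 CPM under ADWA11. In sub-cluster 0 it stood at 5.88 and 5.55 CPM, and in sub-cluster 3 ADWA11 was also lower than Ctrl. The part of this make-up in the late ratio was not tested. Ftl1 in astrocytes gave -0.24 at 7 dpi and 1.41 at 21 dpi. At 21 dpi Ftl1 was also higher under ADWA11 in other classes, such as endothelial cells at 506 against 316 CPM in Ctrl.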

How the results depend on the processing

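The labels give no replicate numbers, so no fit with a replicate block was made, and ratios within each sex stand in the report without a test. No sub-cluster could be named for Spp1 macrophages, so the alternative restricted to them gave no value. Of the sub-clusters compared, sub-cluster 2 held the most Spp1 (1757 CPM), Plau (112 CPM) and Arg1 (22.7 CPM). Gpnmb, Fabp5, Trem2, Cd9 and Cd63 of the same marker list were each higher in another sub-cluster. The wider pool and the border-type-only values were added after the data had been seen. For single ratios past 2-fold, 49 of 49 kept their direction with TMM scaling, with the mean of CPM per nucleus and with the members kept for clustering, 48 of 48 without called doublets and 48 of 49 with log-normalised clustering. The counts for female nuclei were 44 of 46, for male nuclei 41 of 45, without the 5 nuclei richest in the gene 44 of 47, and in the wider pool 9 of 12. Fewer stayed past 2-fold: 46 with TMM scaling, 43 as mean CPM, 38 with the members kept, 46 without doublets, 41 with log-normalised clustering, 37 in female nuclei (where 21 others passed), 35 in male nuclei, 33 without the richest nuclei and 5 in the wider pool. Thinning moved 45 of 54 shares.

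The median ratio of the members in macrophages in cKO at 7 dpi was -1.43 without the 5 richest nuclei and 0.16 in the wider pool. Under ADWA11 at 7 dpi it was 0.45 in female nuclei, 0.36 as mean CPM per nucleus, 0.49 without the richest nuclei and 0.50 in the wider pool, and between the Ctrl libraries it was 0.49 without the richest nuclei. Counts of members past 2-fold also moved. In cKO at 7 dpi the 4 became 1 in the wider pool. In cKO at 21 dpi the 2 became 1 with the members kept for clustering, in male nuclei, without the richest nuclei and in the border-type group. Under ADWA11 at 7 dpi the 1 became 2 with log-normalised clustering, male nuclei, mean CPM, TMM scaling or without the richest nuclei, and 3 in the wider pool. Under ADWA11 at 21 dpi the 2 became 1 with the members kept, in female nuclei and without the richest nuclei, and between the Ctrl libraries the 3 became 1 with the members kept and in the border-type group.

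Directions turned in macrophages for Hmox1 in cKO at 7 dpi (0.93 in female nuclei, 0.16 in the wider pool), for Cd163 in cKO at 7 dpi with log-normalised clustering (-1.61) and under ADWA11 at 7 dpi in the wider pool (0.20), and between the Ctrl libraries for Tfrc (-0.086 in male nuclei) and Cd163 (0.35 in male nuclei, 0.23 in the wider pool). In microglia they turned for Hmox1 in cKO at 21 dpi (-0.34 in male nuclei) and, without the 5 richest nuclei, for Cp (-0.38) and Tfrc (-0.68) under ADWA11 at 7 and 21 dpi. Astrocyte Hmox1 under ADWA11 at 21 dpi gave -0.50 in female nuclei, -0.28 in male nuclei and -0.36 without the richest nuclei. The causes were not tested. The 46 cKO macrophages at 7 dpi and the 73 and 21 ADWA11 microglia limit what depth can show.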

Other observations

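Genes whose levels followed those of the members across classes and libraries were read from 26 pairs of class and library, over 12194 genes with a mean of at least 5 CPM, as Pearson's r of log2(CPM + 1). The points share libraries and depth, so r is a description. Slc40a1 lay closest to Lipa (r = 0.96), a lysosomal lipase gene, and to Lyz2, a lysozyme gene of macrophages. Tfrc lay closest to Stab2 (0.95), a scavenger receptor gene, and Tmem150b. Slc11a1 followed Ptprc (0.992), the gene of the leukocyte antigen CD45, and Cd48. Cd163 followed F13a1 (0.92), a coagulation factor gene of macrophages, and Cbr2. Ftl1 lay nearest Lgals3 (0.917), the galectin 3 gene, and Acrbp. Hmox1 lay nearest Rngtt (0.912) and Htatip2, Fth1 nearest Rnh1 (0.879) and Cox4i1, Slc48a1 nearest Pim1 (0.879) and Tmed10, and Cp nearest Zbtb46 (0.838) and Crim1.

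Among the pathway genes of the wider macrophage pool, 2 more were picked out after their values had been seen. Ncoa4, whose product takes ferritin to the lysosome, stood at 38.0, 98.0 and 28.8 CPM in the Ctrl, ADWA11 and cKO libraries of 7 dpi and at 63.7, 140 and 57.4 CPM at 21 dpi, with ADWA11 highest at both times. Spic, a transcription factor gene of iron-recycling macrophages, stood at 3.89, 11.8 and 1.73 CPM at 7 dpi and at 3.70, 12.8 and 17.9 CPM at 21 dpi, with Ctrl below ADWA11 at both times. In fibroblasts, Trf, the transferrin gene, stood at 20.7 against 6.27 CPM in cKO and Ctrl at 7 dpi and at 31.0 against 12.9 CPM at 21 dpi. Oligodendrocyte markers in fibroblasts were also higher in cKO. They summed to 65.2 against 17.9 CPM in Ctrl at 7 dpi and 110 against 23.2 CPM at 21 dpi, and their part in the Trf level was not tested.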
